A study of Mus musculus with 13 samples.

Results

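H3K4me3 and H3K27me3 ChIP-seq peaks on chromosomes 4, 5 and 18 of 4T1 cells, a mammary tumor line of BALB/cJ mice, were compared between cells with a non-targeting control sgRNA (sg-Ctrl) and Nup210 knockout (KO) cells. The members were the distinct peaks whose chromosome is 4, 5 or 18 in the 4 lists of the histone marks. They numbered 5540 of 40301 peaks, with 2033 on chromosome 4, 2422 on chromosome 5 and 1085 on chromosome 18, and the other 16 autosomes held 33266. These 3 chromosomes were chosen by the KO to sg-Ctrl ratio of both marks, which was low on them, so their ratios are a description with no test. What the choice did not use is the order of the regions along each chromosome, which is described in bins of 10 Mb.

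Both conditions carried a lentiviral sgRNA under puromycin selection, with Cas9 given for a short time from an adenovirus, and the KO guide cuts exon 5 of Nup210, the gene of a membrane protein of the nuclear pore. The KO cells were 1 clone, N13, and the sources used here do not say whether the sg-Ctrl cells were a clone as well. The study describes 4T1 cells as aneuploid. Each mark had 1 library per condition, so a difference made by the loss of Nup210 and one between the clone and the control culture cannot be told apart. No test over replicates was possible, and the intervals below are 95% intervals over regions or counting intervals of reads, which do not hold the spread between cultures. The H3K4me3 peak at the start of Nup210, on chromosome 6, had 885 reads in sg-Ctrl and 913 in KO. It lies outside the cut exon and does not check the knockout.

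H3K4me3 is placed at active and poised gene starts by the SET1 and MLL methyltransferases, and it is read by factors that recruit the transcription machinery. H3K27me3 is placed by the Polycomb repressive complex PRC2 over silent developmental genes, often in broad domains, and some starts carry both marks. The lists hold H3K4me3 peaks within 4 kb of a gene start and H3K27me3 peaks in gene bodies, so H3K4me3 members stand for starts and H3K27me3 members for genes with domains. Reads of a peak were divided by the size of its library relative to the IgG library, and are called scaled reads. Peaks of both lists that overlapped were joined to 1 region, whose ratio is the scaled reads in KO over those in sg-Ctrl.

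Promoters are shown for chromosomes 4 and 5, because they span what the chromosome ratios are made of: the region with the lowest ratio, one at the chromosome median, and the highest. Each is the first gene in that order with an entry whose start lies in the region, which made Dpysl5 the highest shown for chromosome 5 and Aff1, next after Ift81, the one at its median. Each line holds the 250 bases before the gene start in RefSeq (GRCm38.p6), 5′ to 3′, with CG dinucleotides in capitals. CG reads the same on both strands. Of 32851 RefSeq promoters of this length, 92.1% held at least 1 CG, 37.8% held at least 10, and the median was 6.
BC039966, chr4:153950477-153950726, minus strand: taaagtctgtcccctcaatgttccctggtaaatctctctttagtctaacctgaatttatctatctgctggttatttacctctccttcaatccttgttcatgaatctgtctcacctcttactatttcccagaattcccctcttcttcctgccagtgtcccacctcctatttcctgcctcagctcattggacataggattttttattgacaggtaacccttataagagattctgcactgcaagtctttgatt
Fbxo42, chr4:141147672-141147921, plus strand: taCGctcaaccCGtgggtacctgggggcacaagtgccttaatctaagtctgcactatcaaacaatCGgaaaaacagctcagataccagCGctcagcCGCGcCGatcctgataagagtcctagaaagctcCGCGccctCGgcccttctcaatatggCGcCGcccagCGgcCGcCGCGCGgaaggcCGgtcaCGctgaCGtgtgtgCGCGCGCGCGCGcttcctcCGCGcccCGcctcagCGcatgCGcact
Zbtb8b, chr4:129440819-129441068, minus strand: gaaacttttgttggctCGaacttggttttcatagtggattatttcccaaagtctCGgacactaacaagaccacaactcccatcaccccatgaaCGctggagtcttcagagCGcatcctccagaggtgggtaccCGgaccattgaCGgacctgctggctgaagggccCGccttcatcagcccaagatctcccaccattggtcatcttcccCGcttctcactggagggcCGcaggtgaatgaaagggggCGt
Pcolce, chr5:137611405-137611654, minus strand: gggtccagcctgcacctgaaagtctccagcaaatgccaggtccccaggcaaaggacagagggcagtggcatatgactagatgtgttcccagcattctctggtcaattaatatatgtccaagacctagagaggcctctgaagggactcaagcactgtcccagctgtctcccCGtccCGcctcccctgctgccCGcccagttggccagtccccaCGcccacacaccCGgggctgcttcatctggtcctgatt
Aff1, chr5:103753912-103754161, plus strand: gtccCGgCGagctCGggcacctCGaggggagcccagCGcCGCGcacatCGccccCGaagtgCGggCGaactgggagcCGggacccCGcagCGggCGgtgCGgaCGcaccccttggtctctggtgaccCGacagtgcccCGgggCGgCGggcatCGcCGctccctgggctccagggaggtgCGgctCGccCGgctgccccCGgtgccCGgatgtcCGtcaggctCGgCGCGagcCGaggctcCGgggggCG
Dpysl5, chr5:30711314-30711563, plus strand: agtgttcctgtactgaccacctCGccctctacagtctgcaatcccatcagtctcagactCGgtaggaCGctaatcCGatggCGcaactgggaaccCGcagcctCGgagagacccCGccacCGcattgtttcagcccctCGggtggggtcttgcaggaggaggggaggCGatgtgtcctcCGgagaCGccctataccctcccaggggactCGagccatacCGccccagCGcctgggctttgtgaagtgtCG
The starts at the chromosome medians, of Fbxo42 and Aff1, held 31 and 35 CG. The promoters with the lowest ratios held fewer, with 0 at BC039966 and 5 at Pcolce, and those with the highest ratios held 10 at Zbtb8b and 17 at Dpysl5. Fbxo42 encodes a substrate receptor of a ubiquitin ligase, Aff1 a subunit of the super elongation complex, Pcolce an enhancer of procollagen processing, and Dpysl5 a protein of axon guidance.

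H3K4me3 was lower in KO than in sg-Ctrl over nearly the whole of chromosomes 4 and 18, and to a smaller extent over chromosome 5. The median log2 ratio was -0.82 on chromosome 4 (688 regions with a peak in both lists), -0.81 on chromosome 18 (265 regions) and -0.61 on chromosome 5 (671 regions), and it was -0.26 on the other 16 autosomes (8604 regions). Relative to those autosomes, the medians were -0.56 (95% interval -0.59 to -0.52) on chromosome 4, -0.55 (-0.63 to -0.49) on chromosome 18 and -0.35 (-0.38 to -0.32) on chromosome 5. The intervals of chromosomes 4 and 18 overlapped, and that of chromosome 5 did not meet either. Values relative to the other autosomes do not depend on the library scaling. The level of every ratio does: scaled to the peaks with the same position in both lists, each H3K4me3 log2 ratio is 0.47 higher and each H3K27me3 log2 ratio 0.15 higher.

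Among single regions, 90.4% on chromosome 4, 84.5% on chromosome 5 and 89.4% on chromosome 18 had an H3K4me3 ratio below the median of the other autosomes, against 55.9% of all regions. Regions at least 2-fold lower in KO numbered 207 (30.1%), 107 (15.9%) and 74 (27.9%), against 7.9% of all regions and 4.85% on the other autosomes. With the other scaling they numbered 38, 25 and 13, against 1.38% on the other autosomes. Regions at least 2-fold higher numbered 4, 6 and 1, and 1.58% of all regions were. Regions with a peak in the sg-Ctrl list alone made up 5.14%, 3.27% and 7.14% of the regions, and those in the KO list alone 1.76%, 1.42% and 2.72%, against 3.08% and 2.26% of all regions. Most H3K4me3 regions of these chromosomes were therefore listed in both conditions, and most of those had a lower ratio than the other autosomes.

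The shift extended over the whole distribution. On chromosome 4 it was -0.53 at the 25th percentile and -0.57 at the 75th, when set against the same percentile of the other autosomes. On chromosome 5 it was -0.34 and -0.41, and on chromosome 18 it was -0.52 and -0.57. The interquartile range was 0.51, 0.48 and 0.49, within the 0.41 to 0.55 of the other autosomes. The H3K27me3 shift at the same percentiles was -0.71 and -0.79 on chromosome 4, -0.30 and -0.57 on chromosome 5 and -0.67 and -0.63 on chromosome 18.

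**Figure D1:**
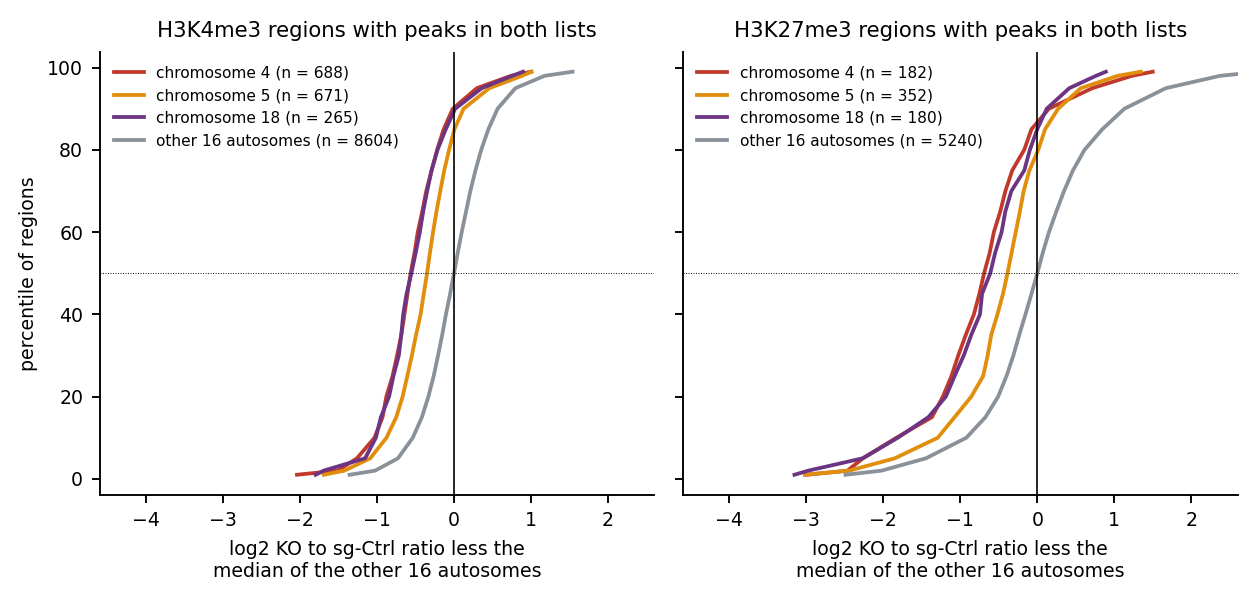
Percentiles of the log2 KO to sg-Ctrl ratio of regions, less the median of the other 16 autosomes, for H3K4me3 (left) and H3K27me3 (right). The H3K4me3 curves of chromosomes 4 and 18 run side by side left of the grey curve of the other autosomes, with medians of -0.56 and -0.55, and chromosome 5 lies between at -0.35.

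Other autosomes also stood away from their common median. Chromosome 14 had an H3K4me3 median of -0.38 (95% interval -0.43 to -0.34) relative to the other autosomes, below that of chromosome 5, and chromosome 10 had -0.31. Chromosome 8 had the highest, 0.40. From the lowest up, chromosomes 4, 18 and 5 ranked 1, 2 and 4 among the 19 autosomes. Chromosome 5 was therefore not apart from chromosomes 14 and 10, whose intervals met its own.

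H3K27me3 was lower in KO on the same chromosomes. Its median log2 ratio was -0.62 on chromosome 4 (182 regions), -0.54 on chromosome 18 (180 regions) and -0.32 on chromosome 5 (352 regions), and it was 0.07 on the other autosomes (5240 regions). Relative to those, the medians were -0.69 (-0.80 to -0.61), -0.61 (-0.73 to -0.50) and -0.39 (-0.45 to -0.33). They ranked 1, 2 and 3, and chromosome 10 followed with -0.34, whose interval of -0.40 to -0.27 met that of chromosome 5. Regions below the median of the other autosomes made up 85.7%, 85.0% and 79.0% on chromosomes 4, 18 and 5, against 53.3% of all regions. At least 2-fold lower were 52 regions (28.6%) on chromosome 4, 46 (25.6%) on chromosome 18 and 54 (15.3%) on chromosome 5, against 9.56% of all regions. At least 2-fold higher were 8, 2 and 8, against 12.1% of all.

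**Figure D2:**
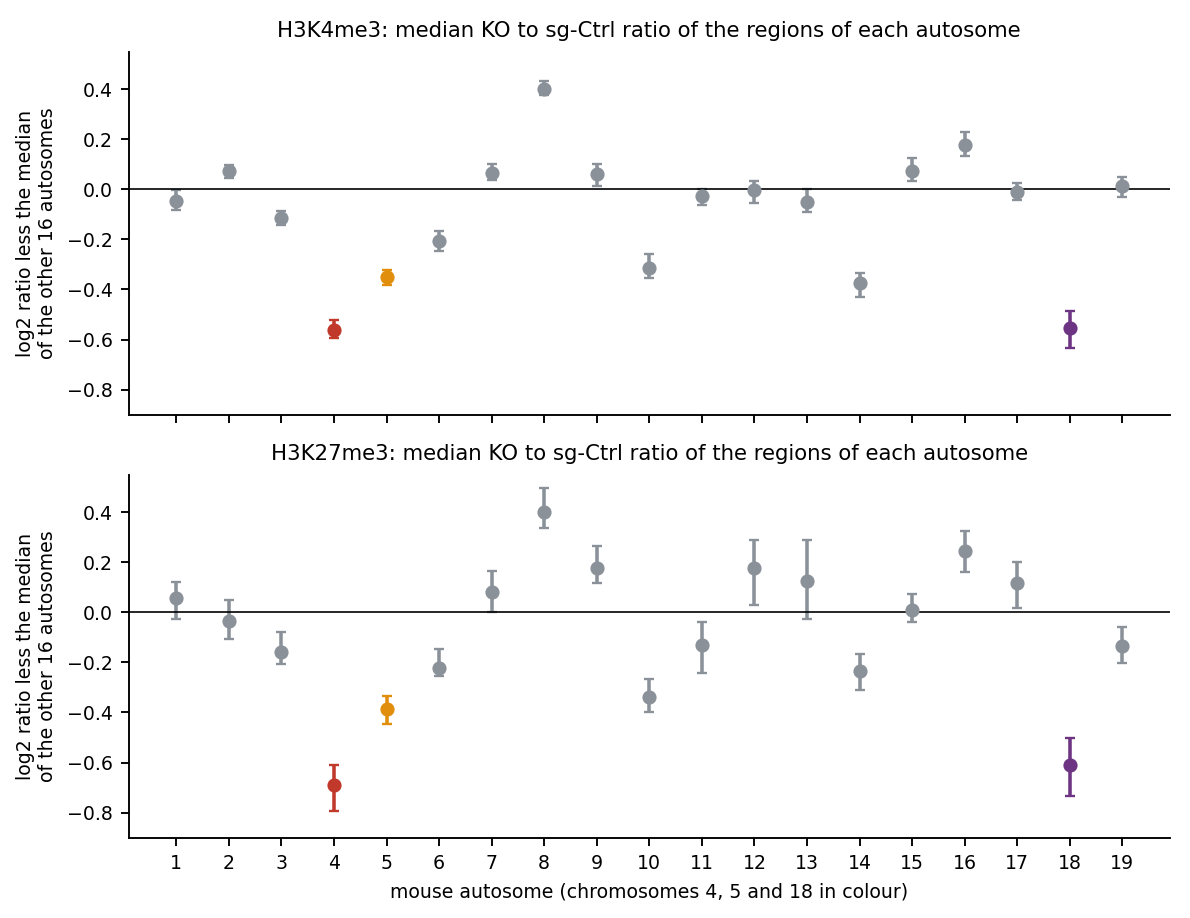
Median log2 KO to sg-Ctrl ratio of the regions of each autosome, less the median of the other 16 autosomes, for H3K4me3 (top) and H3K27me3 (bottom), with 95% intervals from order statistics over regions. Chromosomes 4 and 18 are the lowest for both marks, chromosome 14 lies below chromosome 5 for H3K4me3, and chromosome 8 is the highest for both at 0.40.

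The order of the autosomes was alike for both marks. Over the 19 autosome medians, Pearson's r between the marks was 0.93 and Spearman's rho 0.82, and over the 16 autosomes that were not chosen they were 0.85 and 0.71. The points share the cells and the IgG library of both marks, and autosomes are not replicates, so these values are a description. Within the 3 chromosomes the marks did not follow each other from bin to bin: r was -0.06 over 12 bins of chromosome 4, -0.20 over 13 of chromosome 5 and -0.29 over 9 of chromosome 18. In all 34 of these bins both marks lay below the other autosomes, which was so in 70 of 203 bins elsewhere. A larger share than elsewhere follows from the choice of chromosomes low in both marks.

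**Figure D3:**
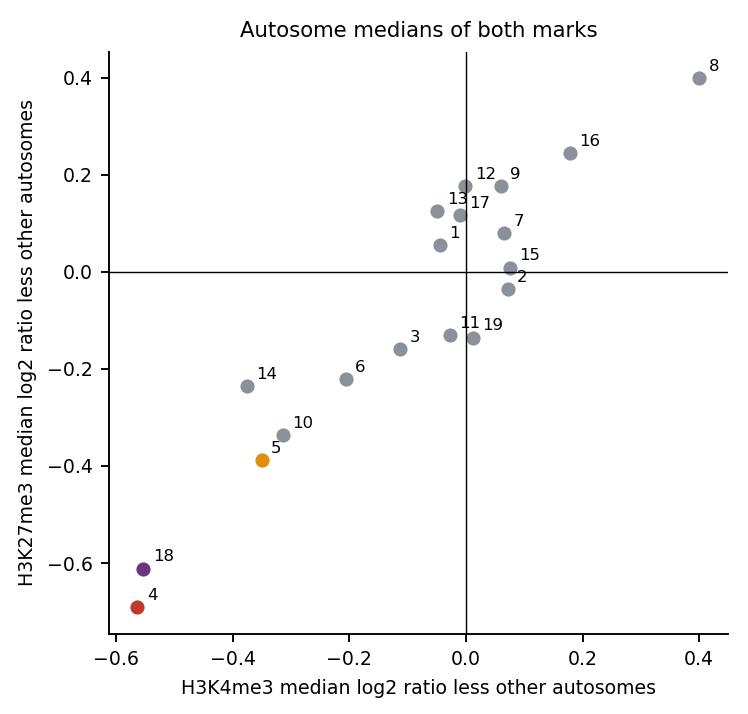
Median log2 ratio of H3K27me3 against that of H3K4me3 for the 19 autosomes, each less the median of the other 16 autosomes, with chromosome numbers beside the points. Chromosomes 4 and 18 lie at the lower left, chromosome 5 beside chromosome 10, and chromosome 8 at the upper right, with an r of 0.93 over all points.

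Along the chromosomes, the lower H3K4me3 ratio was not limited to a segment. Of the 10 Mb bins with at least 5 regions, 16 of 16 on chromosome 4, 15 of 15 on chromosome 5 and 9 of 9 on chromosome 18 had a median below that of the other autosomes. On the other autosomes 113 of 209 bins (54.1%) did. The whole 95% interval lay below in 14, 12 and 9 of these bins, and in 36 of 209 bins elsewhere. Larger shares below than elsewhere follow from the choice of these chromosomes. Whether every bin was low was not set by it. Relative to the other autosomes, bin medians ran from -0.66 to -0.41 on chromosome 4, from -0.50 to -0.24 on chromosome 5 and from -0.70 to -0.36 on chromosome 18. The least lowered bins of chromosome 18, from 20 to 30 Mb and from 80 to 90 Mb, lay at -0.37 and -0.36, near the median of chromosome 5.

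The spread between H3K4me3 bins lay within that of the other autosomes. The SD of the bin medians was 0.07, 0.08 and 0.13 on chromosomes 4, 5 and 18, against 0.06 to 0.17 on the other autosomes (median 0.12). When each chromosome was cut at every bin border with at least 3 bins on each side, the widest difference between the medians of the sides was 0.09, 0.10 and 0.09 in size, against a median of 0.11 and a highest of 0.22 elsewhere. The bins of chromosome 4 between 140 and 160 Mb were the least lowered, with -0.41 and -0.44, and the interval of the last of them lay above the chromosome's own median. They hold 66 and 67 regions. All bins of chromosomes 6, 10 and 14 lay below the other autosomes as well, and all of chromosome 8 above.

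**Figure D4:**
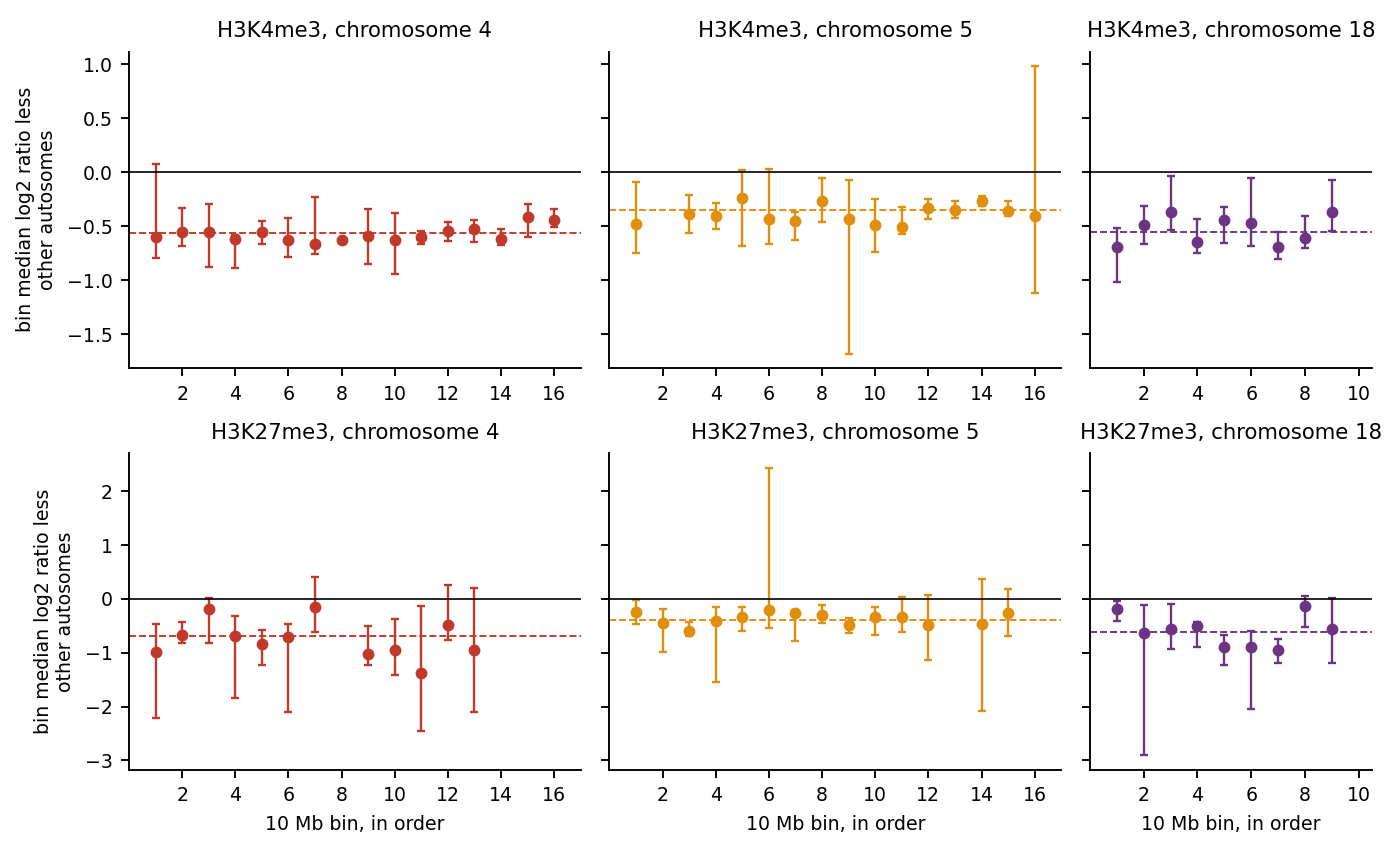
Median log2 ratio of each 10 Mb bin with at least 5 regions, less the median of the other 16 autosomes (line at 0), in order along chromosomes 4, 5 and 18, with 95% intervals from order statistics where a bin allows one. Dashed lines are the chromosome medians. Every point lies below 0, with H3K4me3 between -0.70 and -0.24 and H3K27me3 between -1.37 and -0.13.

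H3K27me3 bins lay below as well, with a wider spread. Of the bins used, 12 of 12, 14 of 14 and 9 of 9 on chromosomes 4, 5 and 18 had a median below the other autosomes, against 94 of 205 (45.9%) elsewhere. Whole intervals lay below in 8, 9 and 7 of them. As for H3K4me3, a larger share below than elsewhere follows from the choice. Bin medians ran from -1.37 to -0.14 on chromosome 4, from -0.59 to -0.20 on chromosome 5 and from -0.95 to -0.13 on chromosome 18. Their SD of 0.35, 0.12 and 0.30 stood beside 0.18 to 0.67 on the other autosomes. On chromosome 18 the bins from 30 Mb on had a median of -0.73 and those before it -0.39. That difference of 0.33 in size stood beside a median of 0.19 and a highest of 0.67 elsewhere. The interval excluded the chromosome's own median in 4 of the 9 bins of chromosome 18, against 38 of 205 bins elsewhere, and the bin from 70 to 80 Mb, beyond the lowest, stood at -0.13. H3K27me3 on chromosome 18 was therefore low in every bin but uneven between them. Intervals of single bins were wide: the lowest bin, 100 to 110 Mb of chromosome 4, had 7 regions and an interval of -2.46 to -0.13.

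Presence of H3K27me3 peaks moved with the ratios. Of the H3K27me3 regions, 175 of 383 on chromosome 4 (45.7%, 95% Wilson interval 40.8 to 50.7), 182 of 582 on chromosome 5 (31.3%, 27.6 to 35.2) and 101 of 297 on chromosome 18 (34.0%, 28.9 to 39.6) were listed in sg-Ctrl alone. The background was 17.4% of all regions, and the other autosomes ran from 4.59% to 22.8%. In KO alone were 26 (6.79%), 48 (8.25%) and 16 (5.39%), against 21.3% of all regions and 10.4% to 33.5% on the other autosomes. The KO library of this mark held 3.16 times the reads of that of sg-Ctrl, and the part of depth in these counts was not tested. The length under peaks went from 6.91 Mb in sg-Ctrl to 4.19 Mb in KO on chromosome 4 (ratio 0.606), from 13.3 to 11.7 Mb on chromosome 5 (0.885) and from 6.34 to 4.37 Mb on chromosome 18 (0.689). On the other autosomes it went from 187 to 232 Mb (1.24), and the lowest of them, chromosome 10, had 0.972. Regions in sg-Ctrl alone were narrower than those in both lists, with a median width in sg-Ctrl of 9000 bp against 15000 bp on chromosome 4, as also on the other autosomes, with 9000 against 18000 bp.

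**Figure D5:**
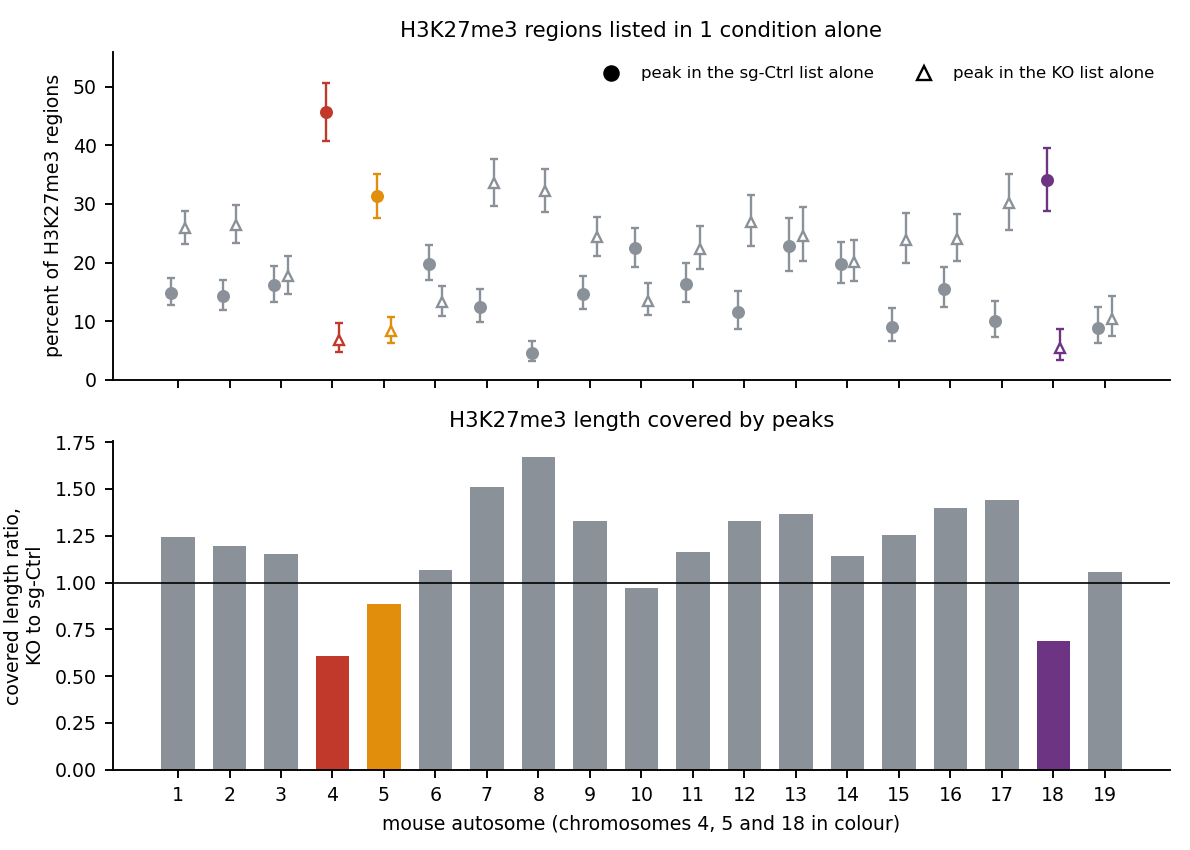
Top, percent of the H3K27me3 regions of each autosome with a peak in the sg-Ctrl list alone (filled circles) or the KO list alone (open triangles), with 95% Wilson intervals. Bottom, length covered by H3K27me3 peaks in KO over that in sg-Ctrl. Chromosomes 4, 5 and 18 have the 3 highest shares in sg-Ctrl alone and the lowest length ratios, 0.606, 0.885 and 0.689.

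Part of the ratios was in the width of the peaks. When reads were divided by the kb of peak in the same list, the H3K4me3 medians relative to the other autosomes were -0.27, -0.26 and -0.27 on chromosomes 4, 5 and 18, and the H3K27me3 medians -0.26, -0.16 and -0.27. Per kb, the H3K4me3 median of chromosome 5 was thus close to those of chromosomes 4 and 18. H3K4me3 peaks were narrower in KO in 371 of 688 regions of chromosome 4 and 143 of 265 of chromosome 18, against 1988 of 8604 on the other autosomes. On chromosome 5 they were narrower in 251 of 671. A peak caller ends a peak where reads fall below its limit, so width and reads are not independent measures.

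The shift was of like size in strong and weak H3K4me3 regions. On chromosome 4, H3K4me3 regions in the class of lowest, middle and highest sg-Ctrl reads per kb had medians of -0.58, -0.60 and -0.55 relative to the same class elsewhere. On chromosome 5 these were -0.37, -0.34 and -0.35, and on chromosome 18 they were -0.45, -0.58 and -0.54. H3K4me3 regions that met a NUP210 peak, which numbered 51, 97 and 34, had -0.53, -0.44 and -0.59 on chromosomes 4, 5 and 18, and those that met none had -0.59, -0.36 and -0.55. For H3K27me3 the values were -0.68, -0.43 and -0.70 with a NUP210 peak and -0.70, -0.30 and -0.60 without. Relative to the same class elsewhere, the intervals with and without a NUP210 peak overlapped for each chromosome and mark. Without that reference, H3K4me3 medians with and without a NUP210 peak were -0.417 and -0.226 on the other autosomes. They were also lower with a NUP210 peak on chromosomes 4, 5 and 18, where the intervals overlapped on chromosome 18 alone. Median fold over IgG was 1.19 in NUP210 peaks and 1.10 in those of the nuclear pore antibody, so these classes rest on weak peaks. Relative to the same class elsewhere, intervals of other classes did not always overlap. Chromosome 5 H3K4me3 regions that met a peak of the nuclear pore antibody had -0.455 (-0.530 to -0.383) against -0.352 (-0.379 to -0.327) for the rest. On chromosome 4 the widest H3K27me3 regions had -0.93 (-1.09 to -0.76) against -0.56 (-0.72 to -0.37) for those of middle width. Regions that met a NUP210 peak were fewer on chromosomes 4 and 18 than elsewhere, with 7.41% and 12.8% of the H3K4me3 regions against 17.5%, and 31.3% and 34.4% of the H3K27me3 regions against 48.1%. On chromosome 5 they were 14.5% of the H3K4me3 regions and 197 of 352 H3K27me3 regions. The few H3K4me3 regions that also met an H3K27me3 peak in sg-Ctrl, 15, 15 and 8 on chromosomes 4, 5 and 18, had -0.49, -0.15 and -0.25, with intervals that all reached above 0. At these starts with both marks a shift could therefore not be told from none.

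IgG reads, from libraries that the labels do not split by condition, were among the lowest on chromosomes 4 and 18. In NUP210 peaks the IgG reads per kb were 19.3 on chromosome 4 and 19.9 on chromosome 18, ranks 1 and 2 from the lowest of the 19 autosomes, and 22.9 on chromosome 5, rank 12. In peaks of the nuclear pore antibody, which have a mouse IgG library of their own, the ranks were 1, 2 and 13. In sg-Ctrl H3K4me3 peaks IgG reads per kb were 9.65, 11.5 and 13.1 on chromosomes 4, 18 and 5 (ranks 2, 4 and 8), and in sg-Ctrl H3K27me3 peaks 11.5, 11.7 and 15.4 (ranks 3, 4 and 13). Chromosome 7 had 8.90 and 11.2 and chromosome 13 had 10.7 and 10.9 in these peaks. Relative to the other autosomes, the KO to sg-Ctrl medians of chromosome 7 were 0.06 for H3K4me3 and 0.08 for H3K27me3. IgG reads were equal in both conditions at all peaks of the same position, so they hold no KO to sg-Ctrl difference. The part of these levels in the ratios was not tested.

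Gene lists held transcription factors, signalling genes, and genes of chromatin, growth or adhesion on each chromosome. Of 127 genes, 72 had an H3K4me3 peak in both conditions, 3 in sg-Ctrl alone and 0 in KO alone, and 52 had none. Of the 72, 63 lay below the median of the other autosomes, all 25 of chromosome 4, 20 of 27 on chromosome 5 and 18 of 20 on chromosome 18. Of all H3K4me3 regions 55.9% lay below, and of those on the 3 chromosomes 87.8% did, so by this count the list genes were like their chromosomes. At least 2-fold lower were 29 and at least 2-fold higher 0, against 7.9% and 1.58% of all regions and 23.9% lower on the 3 chromosomes. By this cutoff the list genes had a larger share lower than their chromosomes. With the other scaling 8 were 2-fold lower. The median log2 ratio of the list genes relative to the other autosomes was -0.68, -0.44 and -0.69 on chromosomes 4, 5 and 18. These lay below the -0.56, -0.35 and -0.55 of all regions there.

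On chromosome 4 the transcription factor Nfib, a regulator of mammary and lung development, had 21794 scaled H3K4me3 reads in sg-Ctrl against 6664 in KO (log2 ratio -1.71, counting interval -1.74 to -1.67). Jun, a subunit of AP-1, had -1.14 and Id3, an inhibitor of basic helix-loop-helix factors, -1.13. Mycl, a member of the Myc family, was the least lowered factor with -0.41, or -0.15 relative to the other autosomes. Among receptors, Tlr4, the receptor for lipopolysaccharide, had 2354 and 823.7 scaled reads and a log2 ratio of -1.51, and the matrix protein gene Tnc had -1.45. Tnfrsf9, a costimulatory receptor of T cells, and Park7, a protein of the oxidative stress response, share 1 region with -1.14. Cdkn2c, an inhibitor of CDK4 and CDK6, had 27230 and 10936 scaled reads, a log2 ratio of -1.32. Cdc42, a small GTPase of the cytoskeleton, had -1.46, and the least lowered gene of its list, Rpa2, a subunit of the single-strand DNA binding protein RPA, had -0.50. The 25 genes on this chromosome thus all lay below the other autosomes, by 0.15 at the least. With the other scaling the ratio of Mycl would not be below 1.

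Chromosome 5 carries a cluster of Cxcl chemokine genes, which draw neutrophils and T cells. Spp1, which encodes osteopontin, had 948.3 scaled H3K4me3 reads in sg-Ctrl against 165.5 in KO (log2 ratio -2.52). Cxcl9 had -2.03, Cxcl2 -1.75, Cxcl5 -1.39, and Cxcl1 had 2295 and 1150 scaled reads. Cxcl3 was listed in sg-Ctrl alone with 275 reads. Cxcl10 had -0.36, close to the other autosomes. Areg, a ligand of the EGF receptor, had -1.26 and its relative Btc 0.00. Other receptor genes were higher in KO: Fgfr3 had 166.8 and 264.2 scaled reads (0.66), Fzd1, a Wnt receptor, 636.3 and 883.0 (0.47), and Flt1, a VEGF receptor, 756.9 and 890.5 (0.23). The list genes of chromosome 5 therefore spread to both sides, where those of chromosome 4 did not. Of chromatin genes, Kmt2e had -1.60 and Setd1b, a subunit of a SET1 complex, -1.35.

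On chromosome 18 the SMAD genes, which carry TGF-β signals, had log2 ratios of -1.33 (Smad4, 4176 and 1661 scaled reads), -0.98 (Smad7) and -0.90 (Smad2). Rock1, a kinase that acts on actomyosin, had 7159 and 2547 scaled reads and -1.49, and Ctnna1, which encodes α-catenin, -1.26. Nr3c1, the glucocorticoid receptor, had -1.31 and Lmnb1, which encodes lamin B1, -0.93. Dsc2, a desmosomal cadherin, and Piezo2, a mechanically gated channel, were listed in sg-Ctrl alone with 423 and 105 reads. Nfatc1 with 0.01 and Npc1 with -0.22 were the only genes of these lists on chromosome 18 above the median of the other autosomes.

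Few list genes carried H3K27me3. It was listed in both conditions at 19 genes, in sg-Ctrl alone at 4, in KO alone at 2 and at neither in 102. Of the 19, 18 lay below the other autosomes, against 53.3% of all H3K27me3 regions and 82.2% on the 3 chromosomes. At least 2-fold lower were 4 and at least 2-fold higher 0, against 9.56% and 12.1% of all regions, and 21.3% were lower on the 3 chromosomes. In sg-Ctrl alone were 17.4% and in KO alone 21.3% of all regions. Bmp3 on chromosome 5, a BMP ligand, had 1031 scaled reads over 28 kb in sg-Ctrl and 166.3 over 6 kb in KO (log2 ratio -2.63). Piezo2 on chromosome 18 had 2903 and 721.2 over its 10 regions (-2.01), and Asxl3, of a family linked to Polycomb, 2018 and 433.9 (-2.22). Zeb1, a repressor of epithelial genes, Hgf, Btc and Fzd1 had H3K27me3 peaks in sg-Ctrl alone, and Kdr and Setbp1 in KO alone. At genes with both marks the ratios could be low for both or differ: Cxcl9 had log2 ratios of -2.03 for H3K4me3 and -0.59 for H3K27me3, and Flt3 had -0.48 and -0.77, while Btc and Fzd1 had no H3K27me3 peak in KO and H3K4me3 at 0.00 and 0.47.

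The ends of the distributions were single genes. On chromosome 4 the lowest H3K4me3 ratio was at BC039966 (chr4:153949801-153952000), with 2673 reads in sg-Ctrl against 52 in KO (log2 ratio -6.03, counting interval -6.45 to -5.63). Rer1, which retrieves proteins to the endoplasmic reticulum, followed with -3.25, a noncoding RNA gene, Gm12603, with -2.69 and Padi3, a peptidylarginine deiminase, with -2.55. The highest were Zbtb8b with 2.16, Whrn, a scaffold protein of hair cells, with 111.2 and 315.4 scaled reads, Pik3cd, a catalytic subunit of PI3-kinase, with 1.42 and Fam110b with 1.30. All of these high regions were weak, with 95 to 118 reads in sg-Ctrl for the last 3 and 42 for Zbtb8b. On chromosome 5 Pcolce (chr5:137609801-137614400) had 553 and 48 reads, -3.87, and D5Ertd605e and Gm1045 had -2.68 and -2.58. High ratios were those of Tgfbr3, a TGF-β coreceptor, with 60 and 364 reads and 2.26, and Dpysl5 had 1.19 and Cib4 1.17. On chromosome 18 Proc, which encodes protein C, had -2.26, Slc4a9 -2.09, the cytokine gene Tslp 5742 and 1362 scaled reads and -2.08, and Mir694 -2.05. Mc5r, a melanocortin receptor, was highest with 1.87, and then Celf4 with 0.92, Pcdhb21 with 0.70 and Siglec15 with 0.60. Reads outside a listed peak were not counted, and the low regions named here had less peak length in KO. Per kb of own peaks BC039966 had -4.57, Pcolce -0.93, Proc -0.93, Tslp -1.31 and Mir694 0.07, and Mc5r had 0.87. The per kb median of the other autosomes was -0.46.

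For H3K27me3 the ends were mostly differences of domain length. The domain at Il6 on chromosome 5, the gene of interleukin 6, covered 138 kb in sg-Ctrl and 6 kb in KO, with 6629 and 239.2 scaled reads (log2 ratio -4.79, counting interval -4.91 to -4.67). That at Kcnip4, which encodes a partner of potassium channels, covered 88 and 3 kb (-4.97). Gm5868 had -3.62 and 4930513D17Rik -2.98. On chromosome 18 the domain at Nrep covered 233 and 17 kb (-5.01) and that at Camk4, a calcium-dependent kinase, 131 and 41 kb with 8575 and 1072 scaled reads. Psma8, a proteasome subunit of the testis, had -3.23 and Megf10, an engulfment receptor, -3.05. On chromosome 4 Plag1, a zinc finger factor, had 32 and 3 kb (-4.25) and Dmrta1, a DMRT factor, 84 and 13 kb (-3.38), and Svep1 had -2.82 and Aldoart1 -2.40. Other domains were longer in KO. The one at Ppargc1a on chromosome 5, a coactivator of mitochondrial genes, covered 54 and 223 kb (2.51). Regions at Ldb2 had 2.11 and 1.70, and 4930431F12Rik had 1.48. On chromosome 4 Astn2 had 1.73, Agbl4 1.54 and a region at Spaca1 1.48. The adjoining region at Spaca1 had -0.62, near the median of chromosome 4. Ccne2, which encodes cyclin E2, had 1.67, but its region covered 2 kb in both lists. It held 106.3 and 338.6 scaled reads against 427 IgG reads, below IgG in both conditions. On chromosome 18 Rit2 had 1.37, Pcdha4-g 1.04, Dtna 0.94 and Dsc1 0.87. Per kb of own peaks these differences were smaller except at Ccne2, with -0.27 at Il6 and 0.47 at Ppargc1a. Ccne2 kept 1.67. Most other regions with a high ratio were below 0 per kb, where the H3K27me3 median of the other autosomes was -0.12. Ldb2 had -0.42 and -0.72, the higher Spaca1 region -0.43, Agbl4 -0.13, Rit2 -0.85, Pcdha4-g -0.996 and Dsc1 -0.16. Agbl4 and Dsc1 were thus close to the other autosomes. Astn2 with 0.26, 4930431F12Rik with 0.14 and Dtna with 0.05 stayed higher, as did Ppargc1a. Of the regions with a low ratio, Aldoart1 changed sign, to 0.12, and the others kept theirs. Kcnip4, with -0.09, lay above the per kb median of the other autosomes.

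The cell type was checked with marker genes on all chromosomes. H3K4me3 was listed in both conditions at 6 of 8 epithelial markers (Krt8, Krt18, Krt19, Epcam, Cdh1 and Krt14, not Krt5 and Elf5), at 0 of 3 leukocyte and 0 of 2 endothelial markers, and at 3 of 4 fibroblast markers (Col1a1, Pdgfra and Vim). H3K27me3 was listed in both conditions at the leukocyte genes Ptprc and Cd3e, at the fibroblast gene Col1a2 and at Elf5, an epithelial factor, where the log2 ratio was 1.16. At the endothelial gene Cdh5 it was listed in KO alone. The markers of epithelium and of fibroblasts thus both carried H3K4me3, and none of the 3 leukocyte and 2 endothelial markers did. Positions are given in GRCm38.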

How the data were processed

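ChIP-seq of 4T1 cells was read from 6 deposited peak lists, 4 of them of the histone marks. The authors called peaks against IgG with SICER (window 200 bp, H3K4me3; 1000 bp, H3K27me3). Replicates were not pooled, since each condition had 1 library. The lists hold raw counts of ChIP and IgG reads, which the authors deposited without normalization, with a p-value, an FDR and a fold over IgG, a ratio scaled by library size. RNA-seq, 4 samples, was not analysed here, and the 3 IgG samples entered only through the lists. Of the members' genes, 1048 matched GRCm38.p6 by name and 932 matched NCBIM37, of which 87.8% and 5.90% had a listed start or end within 50 bp.

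A peak listed for several genes was used once. The ratio of ChIP to IgG library size, recovered from reads and fold, did not vary within a list and was 1.06 and 1.35 for H3K4me3 in sg-Ctrl and KO, and 0.847 and 2.68 for H3K27me3. All 575 H3K4me3 and 832 H3K27me3 peaks at the same position in both conditions had equal IgG reads, so reads divided by these ratios are on 1 scale. The H3K4me3 lists held 26236314 and 24873356 ChIP reads, those of H3K27me3 7719297 and 26811061, and total depth is otherwise unknown. Peaks overlapping by at least 1 bp were joined. Medians have 95% order-statistic intervals, shares Wilson intervals and read ratios exact binomial counting intervals. Reads carried no molecular identifiers. A 10 Mb bin needed at least 5 regions with peaks in both lists.

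Genes named are, per chromosome and mark, the 4 lowest and 4 highest regions with a gene and 100 or more reads in either library, and members of fixed lists. Fbxo42 and Aff1, close to the chromosome medians, were picked once values were seen. The members, gene lists and rules were chosen with earlier results of these data known. Steps were tested on simulated lists. Promoters are RefSeq's, and those of chromosome 18, like some genes the rule names, are not reported here. The tools were scipy 1.17.1, pandas 2.3.3 and numpy 2.4.6 in Python 3.11.15, and figures were drawn in matplotlib 3.10.9.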

Additional observations from a re-analysis of the deposited data

How the results depend on the processing

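All 6 chromosome medians stayed below the other autosomes under every alternative run. They moved with reads per kb of own peaks, to -0.27, -0.26 and -0.27 for H3K4me3 on chromosomes 4, 5 and 18 and to -0.26, -0.16 and -0.27 for H3K27me3. With peaks of the same start and end alone, H3K4me3 had -0.42 on chromosome 4 (56 regions) and -0.33 on chromosome 5. On chromosome 18 it had -0.24 (16 regions), where the interval reached above 0. Chromosome 5 thus lay below chromosome 18 in this setting, unlike in the main one. With the same restriction H3K27me3 had -0.29, -0.13 and -0.30. With scaled IgG subtracted, H3K27me3 had -0.95, -0.57 and -0.90. Restricted to peaks whose fold over IgG was 2 or more, it had -0.80 on chromosome 4, and with summed reads -0.95 on chromosome 4 and -0.90 on chromosome 18. The cause was not tested. With each bin left out in turn, and, chosen after seeing the data, with each other autosome left out or all weighted equally, the medians stayed within their intervals.

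Bins below the other autosomes numbered 25 of 25, 27 of 27 and 15 of 15 for H3K4me3 with bins of 5 Mb and 8 of 8, 8 of 8 and 5 of 5 with bins of 20 Mb. For H3K27me3 they numbered 16 of 18, 24 of 24 and 12 of 12 with 5 Mb, and 7 of 7, 8 of 8 and 5 of 5 with 20 Mb. Peaks of the same start and end left 5 of 5 and 3 of 4 H3K4me3 bins on chromosomes 4 and 5, and 2 of 2 and 4 of 6 H3K27me3 bins. The number of bins follows from the bin width or the peaks left. Reads per kb left 15 of 16 H3K4me3 bins below on chromosome 4, 8 of 9 on chromosome 18, and 13 of 14 H3K27me3 bins on chromosome 5.

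H3K4me3 regions at least 2-fold lower numbered 38, 25 and 13 with the other scaling, which moves every ratio, and 13, 6 and 1 with peaks of the same start and end, of 56, 42 and 16. No paired analysis was possible because each ChIP-seq condition had 1 library. With 1 clone and 1 library per condition, no interval here holds the spread between cultures.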
